A study of Vitis vinifera with 72 samples.

Results

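Phenylalanine ammonia-lyase (PAL) was followed through 10 gene IDs in the grapevine berry, out of 29971 gene IDs measured. The members were a given list of PAL IDs, defined by ID and not by a threshold on values. It holds 7 IDs of a cluster on chromosome 16 (VIT_16s0039g01100, g01120, g01170, g01240, g01280, g01300 and g01360) and 3 single copies, VIT_06s0004g02620 on chromosome 6, VIT_08s0040g01710 on chromosome 8 and VIT_13s0019g04460 on chromosome 13. Below, cluster members are called by the end of their IDs, such as g01100, and single copies by their chromosome.

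PAL removes ammonia from phenylalanine and so makes cinnamic acid, the first committed step of the phenylpropanoid pathway. From there, cinnamate 4-hydroxylase and 4-coumarate-CoA ligase make coumaroyl-CoA, which feeds chalcone synthase, the entry to flavonoids and anthocyanins, or stilbene synthase, the entry to resveratrol and other stilbenes. In red grape berries, anthocyanins, the coloured flavonoids, accumulate in the skin once ripening starts, and stilbenes build up in the skin, particularly in ripe or stressed berries.

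Berry pericarp (skin and flesh without seeds) was compared between the red cultivars Sangiovese and Cabernet Sauvignon, at mid-ripening (MR, BBCH 83) and before veraison, the onset of ripening (PV, BBCH 79), in the years 2012 and 2011. Both cultivars were sampled in Bolgheri, Montalcino and Riccione, which gives 24 groups of cultivar, stage, area and year. Each group had 3 libraries of total RNA described as biological triplicates, 72 libraries in all. Whether the 3 came from separate vines or vineyards is not stated, so the p-values measure the spread between these samples, and a difference between cultivars, areas or years is a difference between the plots and seasons sampled.

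The deposited values are FPKM, fragment numbers scaled by transcript length and by mapped fragments, so levels of different IDs can be set side by side per length. Libraries were non-directional, so reads of overlapping genes on opposite strands cannot be told apart, and near-identical copies of the cluster may share reads; single cluster IDs are uncertain to that extent. Fewer cells of a type and less RNA per cell cannot be told apart in such bulk samples. No source used here gives read numbers. Relative depth, estimated from the smallest steps between low values of 2986 genes, ranged from 0.517 to 2.24 times the median library. Both extremes were Cabernet Sauvignon PV libraries of Bolgheri 2012. At a typical depth, the smallest values above 0 of the 6 lower cluster members lay between 0.0165 and 0.019 FPKM, about the worth of 1 fragment. The lowest correlation between replicates was 0.969. The labelled stages were checked with an ID recalled as the anthocyanin glucosyltransferase UFGT: its median was 70.9 FPKM in MR Sangiovese and 0.0777 FPKM in PV Sangiovese, and 122.9 FPKM in MR Cabernet Sauvignon and 0.129 FPKM in PV Cabernet Sauvignon.

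Tests were made in limma on log2(FPKM + 1), over the 20443 IDs with a mean of at least 1 FPKM in at least 1 group. A difference was called at an adjusted p under 0.05 (Benjamini-Hochberg over all 20443). On this scale the difference of a low ID is understated. Of the 10 PAL IDs, 7 were tested; g01240, g01280 and g01300 reached 1 FPKM as a mean in no group. Of the tested cluster members, g01100 reached it in 7 groups, g01120 in 4, g01170 in 2 and g01360 in 1. For these 4, being tested therefore depended on the groups where they were high. For g01120, g01170 and g01360 these were all Sangiovese groups of 2012.

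The 3 single copies supplied most PAL transcript. Over the 72 libraries, the chromosome 13 copy averaged 34.9 FPKM, the chromosome 6 copy 25.4 FPKM and the chromosome 8 copy 10.4 FPKM, and each had a mean above 1 FPKM in all 24 groups. In the cluster, g01100 averaged 2.14 FPKM, g01120 averaged 0.681 FPKM, and g01170, g01360, g01300 and g01280 averaged 0.225, 0.192, 0.102 and 0.0793 FPKM. The ID g01240 was listed at 0 in 68 libraries and never exceeded 0.0366 FPKM. Zeros were listed in 49 libraries for g01280, in 29 for g01300 and in 14 for g01360, against none for g01100 and the single copies.

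**Figure D1:**
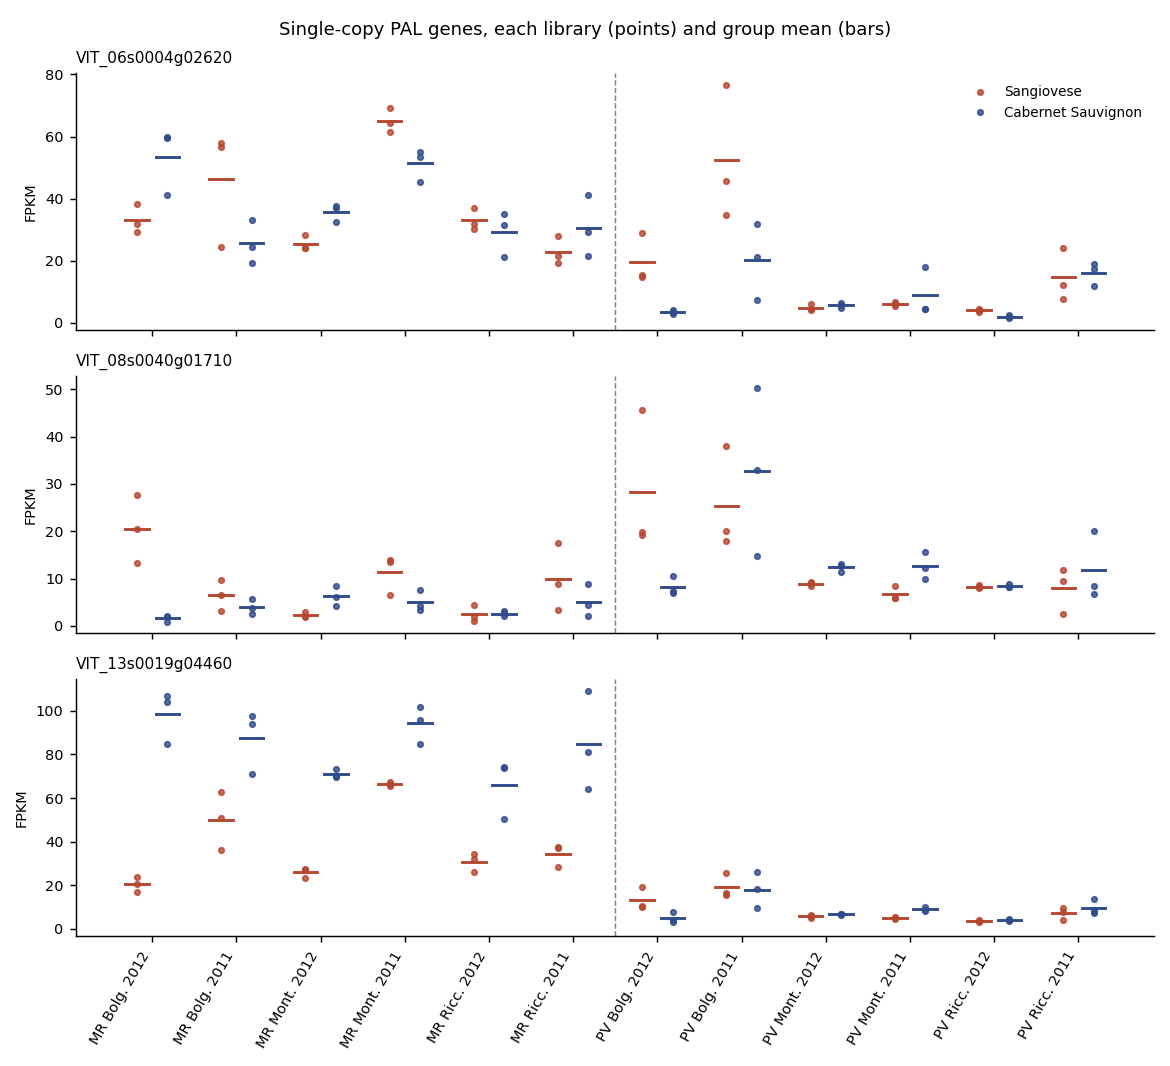
FPKM (linear axes) of the 3 single-copy PAL IDs in each library (points) with group means (bars), by stage, area and year, Sangiovese in red and Cabernet Sauvignon in blue. The chromosome 13 copy is high at MR, more so in Cabernet Sauvignon, and its PV libraries stay at or below 26.2 FPKM.

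Between stages, the largest difference among members was that of the chromosome 13 copy, which was higher at MR. Its lowest, median and highest values were 16.9, 66.0 and 109.2 FPKM in the 36 MR libraries, against 3.16, 7.27 and 26.2 FPKM in the 36 PV libraries. The stages overlapped only at their edges, and the means were 60.9 ± 28.5 and 8.87 ± 5.92 FPKM (MR and PV, SD, n = 36 each). The difference was 2.67 ± 0.07 on the log2 scale (MR minus PV, SE; limma adjusted p = 2.44e-37). The chromosome 6 copy was also higher at MR, with 19.2, 32.8 and 69.3 FPKM as lowest, median and highest at MR, against 1.53, 6.41 and 76.6 FPKM at PV. Its PV range enclosed the MR range, because of the Sangiovese libraries of Bolgheri 2011, yet the means of 37.7 ± 14.5 FPKM at MR and 13.2 ± 15.2 FPKM at PV (n = 36 each) differed by 1.90 ± 0.10 on the log2 scale (limma adjusted p = 1.09e-23).

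On chromosome 8 the copy went the other way. Its lowest, median and highest values were 0.773, 4.26 and 27.6 FPKM at MR, against 2.61, 9.68 and 50.3 FPKM at PV. The ranges overlapped widely, and the log2 difference was -1.13 ± 0.13 (limma adjusted p = 1.38e-11). Among the cluster members, g01100 and g01120 were lower at MR as well. The ID g01100 had a median of 0.640 FPKM and a highest value of 5.72 FPKM at MR, against 0.756 FPKM and 18.6 FPKM at PV, so that the stages differed in their high libraries more than in their medians; its log2 difference was -0.54 ± 0.08 (limma adjusted p = 4.65e-08). The ID g01120 averaged 0.274 ± 0.422 FPKM at MR and 1.09 ± 1.77 FPKM at PV, and its log2 difference was -0.42 ± 0.05 (limma adjusted p = 5.66e-12). The ID g01360 averaged 0.275 FPKM at MR and 0.108 FPKM at PV, a difference of 0.14 on the log2 scale (limma adjusted p = 2.28e-05), and g01170 was not called (-0.004, limma adjusted p = 0.91).

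Members called higher at MR were thus the copies on chromosomes 13 and 6 and g01360, beside 33.4% of all tested IDs called higher, and those called lower were the chromosome 8 copy, g01100 and g01120, beside 58.1% called lower. The ID g01360 was tested only because of MR Sangiovese of Bolgheri 2012, so its call as higher at MR carries no weight of its own. Most groups that brought g01120 into the test were PV groups, so its call as lower at MR carries little weight of its own. The median difference of all tested IDs was -0.23 as deposited, -0.06 when libraries were scaled by median of ratios, and 0.07 with quantile normalization. Set against that shift, quantile normalization left g01100 at -0.18 and g01120 at -0.21, both still called lower, and turned g01170 to 0.16, called higher. With the 24 group means as the unit in place of libraries, g01100 and g01360 lost their calls (adjusted p = 0.0644 and 0.299 in limma). In that setting 80.8% of all tested IDs were called by stage in either direction.

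Stage was compared within each of 12 combinations of cultivar, area and year. The chromosome 13 copy was called higher at MR in 12 of 12, by 0.64 (Sangiovese, Bolgheri 2012) to 4.11 (Cabernet Sauvignon, Bolgheri 2012) on the log2 scale, where 23.5% to 30.7% of all tested IDs were called higher. The chromosome 6 copy was called higher in 9 of 12; the exceptions were Sangiovese of Bolgheri 2011 and Riccione 2011 and Cabernet Sauvignon of Bolgheri 2011. Lower calls at MR for the chromosome 8 copy numbered 8 of 12, where 41.2% to 52.1% of all tested IDs were called lower. The cluster members g01100 and g01120 were called lower in 4 of 12, namely Sangiovese of all 3 areas in 2012 and Cabernet Sauvignon of Riccione in 2012. The PV Sangiovese groups of 2012 were among those that brought g01120 into the test, so its Sangiovese calls carry no weight of their own.

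The size of the stage difference depended on the cultivar. In Sangiovese the chromosome 13 copy had 16.9, 33.3 and 67.4 FPKM as lowest, median and highest of 18 MR libraries, against 3.16, 6.25 and 25.6 FPKM at PV. In Cabernet Sauvignon it had 50.2, 83.1 and 109.2 FPKM at MR, against 3.199, 7.55 and 26.2 FPKM at PV. The MR libraries of Cabernet Sauvignon all lay above its PV libraries, while those of Sangiovese overlapped with PV. The difference was 2.06 in Sangiovese and 3.28 in Cabernet Sauvignon, and the interaction was -1.22 ± 0.15 on the log2 scale (limma adjusted p = 2.71e-10).

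Interactions of cultivar and stage were also called for the chromosome 6 copy (-0.66 ± 0.21), g01100 (-0.92 ± 0.17) and g01120 (-0.63 ± 0.09), where Sangiovese had the lower MR minus PV difference, beside 25.3% of all tested IDs called so. For chromosome 8 the interaction was positive, at 0.77 ± 0.26, beside 41.2% called in that direction. Within Sangiovese, g01100 and g01120 were lower at MR, with differences of -0.998 and -0.74, while in Cabernet Sauvignon neither was called (-0.08 and -0.10). In Sangiovese 3 members were called higher at MR and 3 lower, beside 33.3% and 54% of all tested IDs, and in Cabernet Sauvignon 2 higher and 1 lower, beside 30.3% and 57.8%. Of the 3 higher in Sangiovese, g01360 was tested only because of an MR Sangiovese group. Likewise, g01120 was tested only because of Sangiovese groups of 2012, most of them PV groups. Its interaction and its lower call in Sangiovese therefore carry no weight of their own. Under quantile normalization g01100 in Cabernet Sauvignon turned to 0.30 and was called higher at MR. Without the 4 Bolgheri 2012 groups, the interactions of the chromosome 6 copy (-0.23, adjusted p = 0.397) and the chromosome 8 copy (0.62, adjusted p = 0.0537) were no longer called in limma, and with group means as the unit only that of the chromosome 13 copy was, beside 24.1% of all tested IDs.

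**Figure D2:**
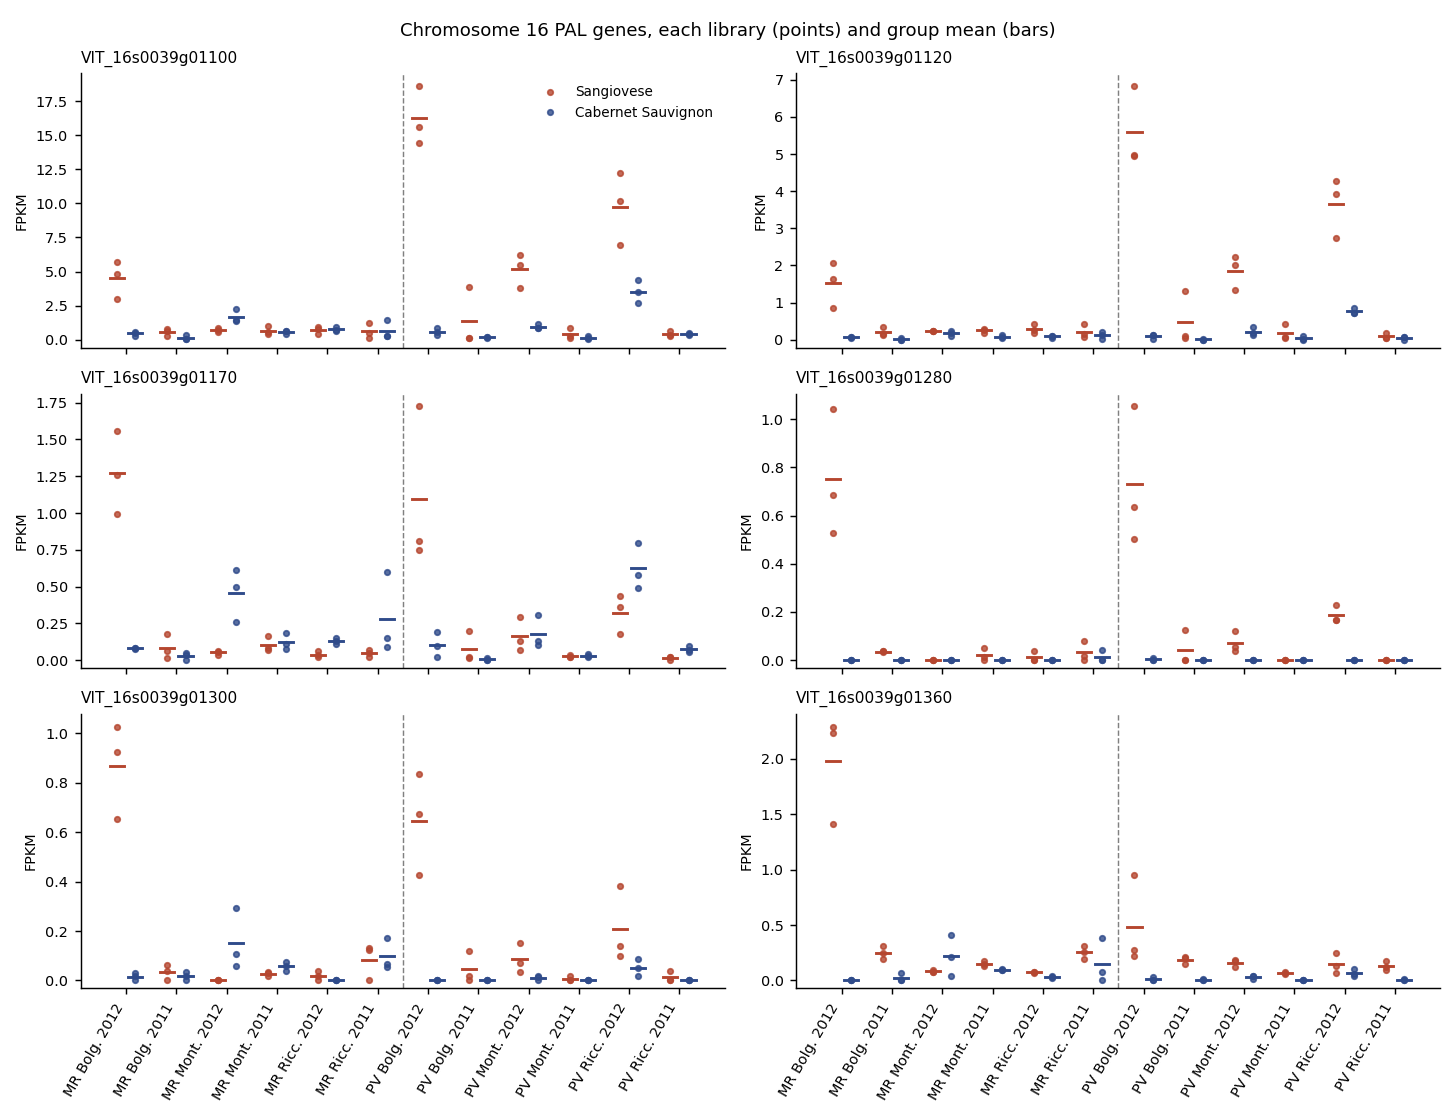
FPKM (linear axes, scaled per panel) of 6 chromosome 16 cluster IDs in each library (points) with group means (bars), laid out by stage, area and year, Sangiovese in red and Cabernet Sauvignon in blue. The IDs g01100 and g01120 peak in PV Sangiovese of 2012, and g01170, g01280, g01300 and g01360 are highest in Sangiovese of Bolgheri 2012.

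At PV the cultivars differed mainly in the cluster. The ID g01100 had 0.139, 3.83 and 18.6 FPKM as lowest, median and highest of the 18 Sangiovese libraries, against 0.0855, 0.464 and 4.37 FPKM in Cabernet Sauvignon. The ID g01120 had 0.0576, 1.32 and 6.83 FPKM in Sangiovese, against 0, 0.101 and 0.868 FPKM in Cabernet Sauvignon. Both cultivars reached down to similar low values and only Sangiovese had libraries above these Cabernet Sauvignon maxima. The differences were 1.21 ± 0.12 for g01100 (limma adjusted p = 1.86e-13) and 0.98 ± 0.07 for g01120 (limma adjusted p = 3.07e-19). The chromosome 6 copy averaged 17.0 FPKM in Sangiovese and 9.43 FPKM in Cabernet Sauvignon and was called higher in Sangiovese (0.63 ± 0.15, limma adjusted p = 0.000151). The copies on chromosomes 8 and 13 differed by -0.09 ± 0.18 and 0.004 ± 0.104 and were not called. Also called were g01360 (0.22) and, at the edge of the threshold, g01170 (0.10, limma adjusted p = 0.0499). The IDs g01120, g01170 and g01360 were tested only because of Sangiovese groups of 2012. Their calls by cultivar, here and site by site, therefore carry no weight of their own. Of all tested IDs, 39.2% were higher and 34.8% lower in PV Sangiovese.

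These PV differences came from particular sites. Compared area by area and year by year, g01100 was called higher in Sangiovese in Bolgheri, Montalcino and Riccione of 2012 and in none of the 3 areas of 2011, and g01120 in the same 3 sites of 2012 and in Bolgheri 2011. Of all tested IDs, the shares called higher in PV Sangiovese were 35.6%, 32.5% and 26.4% in Bolgheri, Montalcino and Riccione of 2012 and 25.2%, 24.5% and 22.9% in 2011. The shares called lower were 28.5%, 22.7% and 24.5% in 2012 and 27.2%, 24.8% and 21.4% in 2011, and there the members called lower were the chromosome 13 copy in 1 site and g01170 in 1 site. In Bolgheri 2011 1 Sangiovese library stood apart: its g01100 value was 3.90 FPKM and those of the other libraries 0.165 and 0.139 FPKM, and its g01120 value was 1.30 FPKM beside 0.0925 and 0.0600 FPKM. Without Bolgheri 2012 the PV difference of the chromosome 6 copy was 0.32 (limma adjusted p = 0.0803), no longer called, and that of the chromosome 13 copy was -0.25 (limma adjusted p = 0.0378), called lower in Sangiovese.

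At MR the cultivars differed most in the chromosome 13 copy, which was lower in Sangiovese. It averaged 38.03 ± 17.0 FPKM in Sangiovese and 83.8 ± 16.7 FPKM in Cabernet Sauvignon (n = 18 each), a difference of -1.21 ± 0.10 on the log2 scale (limma adjusted p = 2.61e-15). Of all tested IDs, 25.7% were lower and 46.7% higher in MR Sangiovese. Site by site, it was called lower in Sangiovese in 5 of 6 comparisons, where 15.5% to 27.4% of all tested IDs were called lower. The exception was Montalcino 2011, with 66.6, 67.4 and 65.5 FPKM in Sangiovese against 85.0, 95.9 and 101.9 FPKM in Cabernet Sauvignon; these groups did not overlap, but the difference of -0.49 had a limma adjusted p of 0.0999.

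The other MR differences between the cultivars ran upward in Sangiovese. The chromosome 8 copy averaged 8.83 FPKM in Sangiovese and 4.12 FPKM in Cabernet Sauvignon (0.68 ± 0.18, limma adjusted p = 0.00087). The cluster members g01100 (0.29), g01120 (0.35) and g01360 (0.32) were called higher too, while the chromosome 6 copy was not called (-0.03 ± 0.15). The calls of g01120 and g01360 carry no weight of their own, since only Sangiovese groups brought these IDs into the test. Without Bolgheri 2012 the chromosome 8 difference was 0.20 (limma adjusted p = 0.379) and that of g01100 was -0.03 (limma adjusted p = 0.847), so neither was called. Of the upward differences, none was called with group means as the unit, where 39.7% of all tested IDs were called in either direction.

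Sangiovese of Bolgheri 2012 was where the cluster was highest. At PV, g01100 had 15.6, 14.5 and 18.6 FPKM in Sangiovese, against 0.891, 0.558 and 0.327 FPKM in Cabernet Sauvignon of the same area and year. The ID g01120 had 4.95, 4.99 and 6.83 FPKM in Sangiovese, against 0.138, 0.116 and 0.0322 FPKM in Cabernet Sauvignon. Neither pair of groups came near to overlapping, and the differences were 3.44 and 2.58 on the log2 scale (limma adjusted p = 2.51e-15 for g01100). The single copies were higher there as well. On chromosome 6, the copy had 14.7, 15.5 and 29.1 FPKM in Sangiovese against 4.17, 3.51 and 2.85 FPKM in Cabernet Sauvignon (2.15). The chromosome 8 copy had 19.2, 19.8 and 45.7 FPKM against 10.5, 7.42 and 6.97 FPKM (1.56), and the chromosome 13 copy 9.95, 10.6 and 19.1 FPKM against 7.60, 4.21 and 3.199 FPKM (1.25). In each of these 3 copies the groups did not overlap, and the same Sangiovese library was the highest. All 7 tested members were called higher in PV Sangiovese of Bolgheri 2012, beside 35.6% of all tested IDs. Of these, g01120 was tested only because of Sangiovese groups of 2012, and g01170 and g01360 only because of those in Bolgheri. Their calls in comparisons with these groups therefore carry no weight of their own.

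At MR in Bolgheri 2012 the members parted. The chromosome 8 copy had 27.6, 20.4 and 13.4 FPKM in Sangiovese, against 0.773, 1.91 and 2.06 FPKM in Cabernet Sauvignon, a difference of 3.04. The chromosome 13 copy had 24, 20.5 and 16.9 FPKM in Sangiovese, against 84.8, 104.2 and 106.7 FPKM in Cabernet Sauvignon, a difference of -2.22. So the 2 cultivars stood in opposite order in these copies, with no overlap in either, and the chromosome 6 copy was not called (-0.67). The ID g01100 had 5.72, 4.84 and 2.98 FPKM in Sangiovese, against 0.494, 0.598 and 0.293 FPKM in Cabernet Sauvignon (1.89). Both g01120 (1.20) and g01170 (1.07) were called higher, and g01360 had 2.23, 2.29 and 1.41 FPKM in Sangiovese, against 3 Cabernet Sauvignon libraries listed at 0. Higher calls covered 31.5% of all tested IDs in this comparison and lower calls 27.4%.

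The low members g01280 and g01300 were highest in Sangiovese of Bolgheri 2012. There g01280 had 1.04, 0.687 and 0.527 FPKM at MR and 0.637, 0.502 and 1.05 FPKM at PV, and g01300 had 1.03, 0.924 and 0.654 FPKM at MR and 0.675, 0.428 and 0.836 FPKM at PV. These values were many times the estimated worth of 1 fragment, whereas in Cabernet Sauvignon of the same site both IDs were at or near 0. Neither was among the IDs tested, since neither reached a mean of 1 FPKM. With no filter on low values, both were called higher in Sangiovese at PV (0.20 and 0.18) and at MR (0.15 and 0.11), and higher in 2012 at both stages, by 0.11 to 0.18. No share of all IDs was computed for that fit. These averages include Sangiovese of Bolgheri 2012. The next highest group means, in PV Sangiovese of Riccione 2012, were 0.187 FPKM for g01280 and 0.208 FPKM for g01300. The ID g01240 was at 0 in all but 1 of the 6 Sangiovese libraries of Bolgheri 2012.

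As a description, a contrast chosen after these values were seen, and which restates them, set the cultivar difference of Bolgheri 2012 against the mean of the other 5 sites. At PV it was positive for all 7 tested members, and 28.9% of all tested IDs were called so. At MR it was positive and past the threshold for 5 members (18.9% of all tested IDs) and negative for the chromosome 13 copy (28.9%). The members g01170 and g01360 are among these although this site alone brought them into the test. In the test of cultivar by environment over all 6 sites, which was not chosen so, 6 of 7 tested members passed at PV (all but g01360), beside 68.1% of all tested IDs. At MR 6 of 7 passed (all but the chromosome 6 copy), beside 67.2%. These shares are near the background at PV and MR, so that such dependence was common in the transcriptome.

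**Figure D3:**
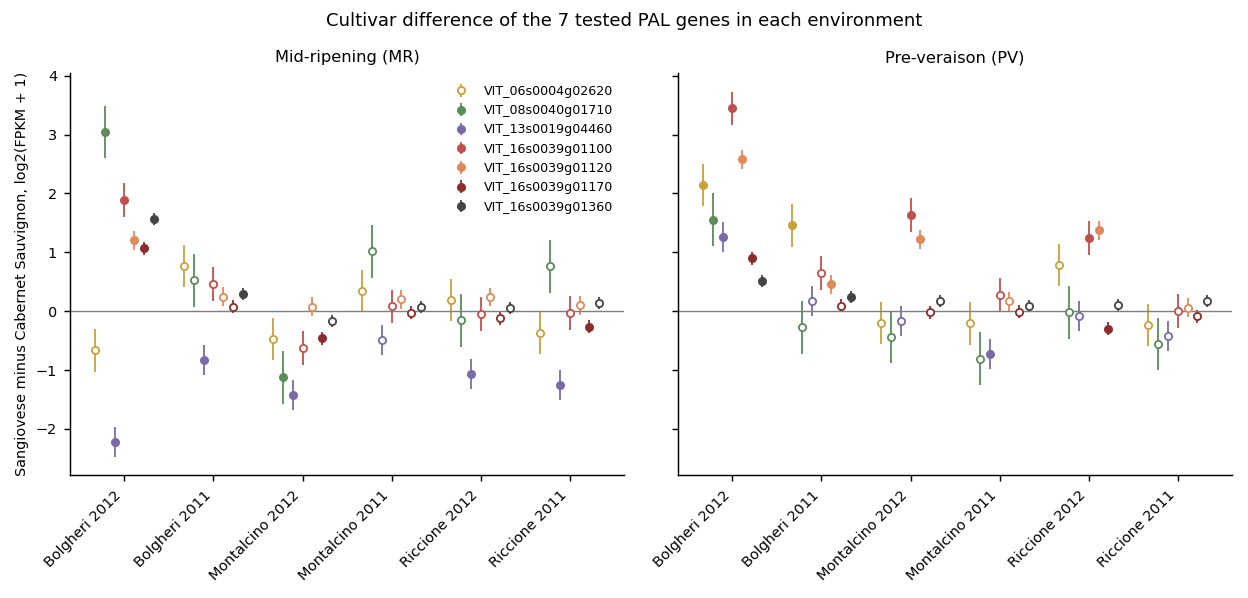
Sangiovese minus Cabernet Sauvignon difference in log2(FPKM + 1) with its SE for the tested PAL IDs in each area and year, MR in the left panel and PV in the right; filled points have an adjusted p under 0.05. At Bolgheri 2012 the points reach 3.44 at PV (g01100), and at MR they run from -2.22 (chromosome 13) to 3.04 (chromosome 8).

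Between years, the cluster was higher and the copies on chromosomes 6 and 13 lower in 2012 at PV. The ID g01100 had 0.327, 4.07 and 18.6 FPKM as lowest, median and highest of 18 PV libraries in 2012, against 0.0855, 0.255 and 3.90 FPKM in 2011. The ID g01120 had 0.0322, 1.10 and 6.83 FPKM in 2012, against 0, 0.0600 and 1.30 FPKM in 2011. The medians of both were higher in 2012 although the ranges overlapped, and the differences were 1.84 ± 0.12 (limma adjusted p = 1.69e-19) and 1.11 ± 0.07 (limma adjusted p = 1.07e-20). In PV berries the chromosome 6 copy had 1.53, 4.37 and 29.1 FPKM in 2012, against 4.42, 14.8 and 76.6 FPKM in 2011. It was lower in 2012 by the medians and by the test (-1.33 ± 0.15, limma adjusted p = 3.19e-11), and so was the chromosome 13 copy, with means of 6.41 and 11.3 FPKM in 2012 and 2011 (-0.69 ± 0.10, limma adjusted p = 1.03e-07). No year difference was called for chromosome 8 (-0.21 ± 0.18). With g01170 (0.40) and g01360 (0.09, limma adjusted p = 0.0444), the IDs called higher in 2012 stood beside 25.1% of all tested IDs, and the lower ones beside 34%. Of the higher IDs, g01120, g01170 and g01360 were tested only because of groups of 2012. Their calls between years therefore carry no weight of their own.

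Within sites, g01100 was called higher in 2012 at PV in 5 of 6 comparisons of 1 cultivar and area, by 0.76 to 3.20, where 14.5% to 29.6% of all tested IDs were called higher. The exception was Cabernet Sauvignon of Bolgheri (0.40). In Riccione, g01100 had 12.2, 10.1 and 6.92 FPKM in Sangiovese of 2012 against 0.267, 0.344 and 0.672 FPKM in 2011, and 2.68, 4.37 and 3.47 FPKM in Cabernet Sauvignon of 2012 against 0.485, 0.329 and 0.443 FPKM in 2011. The years did not overlap in either cultivar. The chromosome 6 copy was called lower in 2012 in 4 of 6 such comparisons, in both cultivars of Bolgheri and Riccione but not of Montalcino, where 13.3% to 26.4% of all tested IDs were called lower.

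At MR the year differences were smaller. The 4 tested cluster members were called higher in 2012, g01100 by 0.54 ± 0.12 and the other 3 by 0.15 to 0.21, beside 21.9% of all tested IDs. As at PV, the calls of g01120, g01170 and g01360 between years carry no weight of their own. The copies on chromosomes 13 (-0.55 ± 0.10) and 8 (-0.51 ± 0.18, limma adjusted p = 0.0201) were called lower, beside 19.6%. Without Bolgheri 2012, g01100 was called higher at MR (0.36, limma adjusted p = 0.032), g01120 was not (0.06, adjusted p = 0.552), and g01170 and g01360 were not tested. Within sites, g01120 and g01360 were called higher at MR in 1 of 6 comparisons, Sangiovese of Bolgheri, and g01100 and g01170 there and in Cabernet Sauvignon of Montalcino. In these 6 comparisons 9.45% to 24.6% of all tested IDs were called higher. With group means as the unit, no member was called between years at MR, where 0.509% of all tested IDs were called, and at PV only g01100 and g01120 (higher) and the chromosome 6 copy (lower) were, beside 14.7%.

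Between areas, averaged over cultivars and years, the single copies were higher in Bolgheri before veraison than in Montalcino and Riccione. Cabernet Sauvignon of 2012 went against this average: the group means in Montalcino and Bolgheri were 5.76 and 3.51 FPKM for chromosome 6, 12.4 and 8.31 FPKM for chromosome 8, and 6.64 and 5.00 FPKM for chromosome 13. The test over the 3 areas called 6 of 7 tested members at PV (all but g01360), beside 62% of all tested IDs. Montalcino was lower than Bolgheri, with a log2 difference of -1.29 for chromosome 6, -0.94 for chromosome 8 and -0.78 for chromosome 13, beside 20.7% of all tested IDs called lower. Riccione minus Bolgheri gave -1.13, -1.14 and -0.96 for these copies, beside 21% called lower and 27.3% called higher. The cluster ordered the areas differently: on average, g01100 and g01120 were lower in Montalcino than in Bolgheri (-0.41 and -0.31). Their medians went the other way, at 0.843 and 0.443 FPKM for g01100 and 0.156 and 0.104 FPKM for g01120 in Montalcino and Bolgheri. Sangiovese of 2012 went with the average: group means were 5.2 and 16.2 FPKM for g01100 and 1.86 and 5.59 FPKM for g01120. Cabernet Sauvignon of 2012 went against it, with 0.959 and 0.592 FPKM for g01100 and 0.219 and 0.0954 FPKM for g01120. Both IDs were higher in Riccione than in Montalcino (0.58 and 0.29, beside 19.8% of all tested IDs called higher). At MR 3 members passed the test over areas, the chromosome 6 copy, g01170 and g01360, beside 60.2%. The last 2 were tested only because of Sangiovese of Bolgheri 2012, so their lower values in Montalcino (-0.13 and -0.30) and in Riccione (-0.20 and -0.31) than in Bolgheri are given as a description. Of all tested IDs, 16.2% were lower and 28.4% higher in Montalcino than in Bolgheri, and 13.5% lower and 22.4% higher in Riccione than in Bolgheri. The chromosome 6 copy was lower in Riccione than in Montalcino (-0.55), beside 23.6%. With group means as the unit no member was called between areas, where 0.0147% of all tested IDs were called at PV and 0.00489% at MR, so the count says nothing particular about PAL.

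Ordering the 24 group means of each ID shows how much of the order the libraries resolve. For g01100 the first 3 places were PV Sangiovese of Bolgheri 2012 (16.2 ± 2.1 FPKM), Riccione 2012 (9.76 ± 2.67 FPKM) and Montalcino 2012 (5.17 ± 1.25 FPKM), and the first 2 were each separate from the next, with no overlap of libraries. The third overlapped with the fourth, MR Sangiovese of Bolgheri 2012 (4.51 ± 1.40 FPKM). In all, 4 of its 23 steps between neighbours were free of overlap. The chromosome 13 copy had 1 such step, between MR Cabernet Sauvignon of Montalcino 2012 (71.1 ± 1.9 FPKM) and MR Sangiovese of Montalcino 2011 (66.5 ± 1.0 FPKM); its highest mean was in MR Cabernet Sauvignon of Bolgheri 2012 (98.6 ± 11.97 FPKM) and its lowest in PV Sangiovese of Riccione 2012 (3.74 ± 0.54 FPKM). The chromosome 6 copy had 2 such steps and the chromosome 8 copy none, so most neighbours in the order of these copies did not differ beyond their spread. On the log2 scale, 19.0% of the sum of squares of the chromosome 8 copy lay between replicates. Stage held 76.2% of the sum of squares of the chromosome 13 copy, 51.6% for chromosome 6 and 28.9% for chromosome 8, while for g01100 the environment (area and year) held 33.6% and stage less.

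Within the PV stage the single copies varied together. Over the 12 PV group means, the correlation on the log2 scale was r = 0.91 for chromosomes 6 and 13, 0.89 for chromosomes 8 and 13 and 0.70 for chromosomes 6 and 8. At MR it was 0.42 for chromosomes 6 and 13 and -0.34 for chromosomes 8 and 13, and the second was 0.29 without the Bolgheri 2012 groups, on which its sign rests. The cluster members g01100 and g01120 had r = 0.98 at PV and 0.90 at MR, and g01100 had r between -0.21 and 0.10 with the single copies at PV, or -0.45 to -0.26 without its 2 highest groups. At MR g01100 had r = 0.63 with chromosome 8, -0.56 with chromosome 13 and -0.02 with chromosome 6, or -0.01, -0.48 and 0.12 without Sangiovese of Bolgheri 2012 and Cabernet Sauvignon of Montalcino 2012. These are descriptions over group means that share libraries and depth, and shared reads between g01100 and g01120 cannot be told apart from shared levels. In some PV groups the spread between libraries was also common to the single copies. One such group was PV Cabernet Sauvignon of Bolgheri 2011, with 7.52, 32.0 and 21.2 FPKM for chromosome 6 in its 3 libraries. There the chromosome 8 copy had 14.8, 50.3 and 32.9 FPKM and the chromosome 13 copy 9.44, 26.2 and 18.2 FPKM, in the same order each time. The same library was highest in all 3 copies in 1 of 12 MR groups and in 6 of 12 PV groups.

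Summed over the 10 IDs, PAL transcript was 107.0 ± 36.1 FPKM at MR and 41.3 ± 31.5 FPKM at PV (n = 36 each), and by cultivar 87.3 FPKM in MR Sangiovese and 48.7 FPKM in PV Sangiovese, 126.7 FPKM in MR Cabernet Sauvignon and 33.9 FPKM in PV Cabernet Sauvignon. The chromosome 13 copy made up 43.7% of the sum in MR Sangiovese and 20.1% in PV Sangiovese, and 66.5% in MR Cabernet Sauvignon and 26.04% in PV Cabernet Sauvignon. The chromosome 8 copy made up 10.01% at MR and 29.7% at PV in Sangiovese, and 3.33% at MR and 42.7% at PV in Cabernet Sauvignon. The cluster held 46.4 ± 7.0% of the sum in PV Sangiovese of Riccione 2012, 30.1 ± 5.3% in Bolgheri 2012 and 27.5 ± 5.0% in Montalcino 2012, 25.6 ± 4.4% in PV Cabernet Sauvignon of Riccione 2012 and 12.7 ± 1.5% in MR Sangiovese of Bolgheri 2012 (SD, n = 3 each). In the other groups its mean share was between 0.18% and 5.31%.

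**Figure D4:**
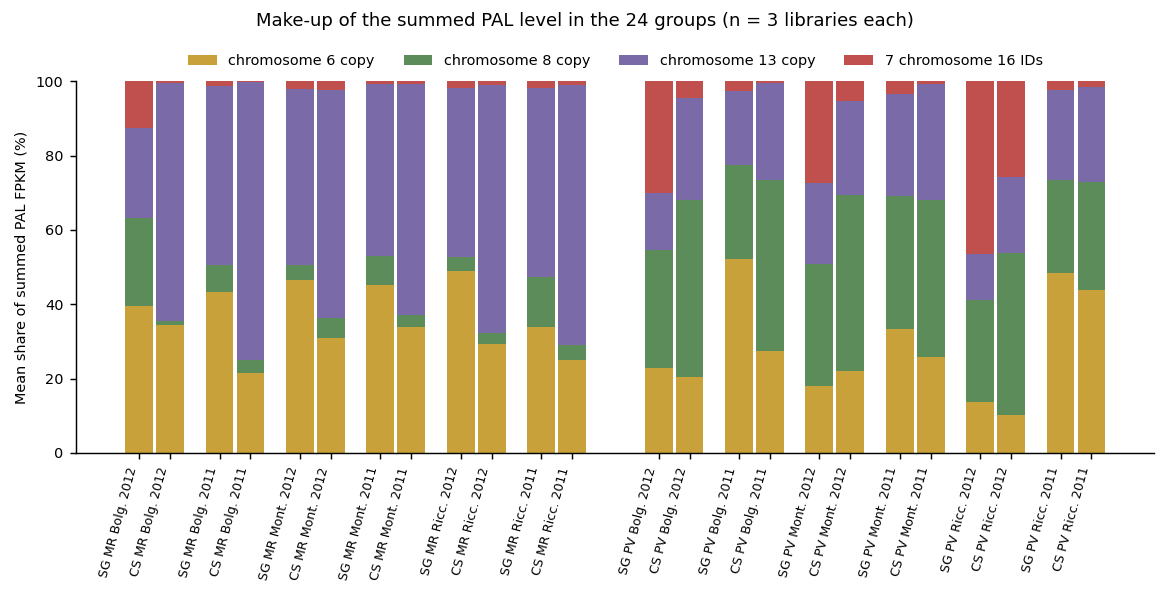
Mean share (percent) of the chromosome 16 cluster and of each single copy in the summed FPKM of the 10 PAL IDs, per group of 3 libraries (SG, Sangiovese; CS, Cabernet Sauvignon). The cluster reaches 46.4% in PV Sangiovese of Riccione 2012, and the chromosome 13 copy is the main one in MR Cabernet Sauvignon.

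Other pathway IDs were read as lists. Their IDs were recalled from published gene names and not checked against an annotation, so single IDs carry no name here. The stilbene synthase list has 45 IDs, of which 37 were tested, in a family of near-identical copies. Between cultivars at PV, 30 of the 37 were called higher in Sangiovese and 0 lower, beside 39.2% and 34.8% of all tested IDs. The median difference was 0.47 against 0.02 for all tested IDs. Between years at PV, 34 were higher in 2012 and 0 lower, beside 25.1% and 34% (median 0.69 against -0.03). In Bolgheri 2012, 36 were higher in Sangiovese at PV (median 2.09), beside 35.6%, and 37 at MR (median 2.15), beside 31.5%. By stage the list was mixed, with 10 called higher and 18 lower at MR (median -0.11), beside 33.4% and 58.1%. As in the PAL cluster, a low ID of this list was tested only if some group raised it to 1 FPKM. These counts may therefore be set in part by that minimum. The 2 most abundant IDs of the list, VIT_10s0042g00860 and VIT_16s0100g01000, averaged 10.3 and 6.20 FPKM in PV Sangiovese and 1.26 and 0.922 FPKM in PV Cabernet Sauvignon.

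The chalcone synthase list followed the stage. All 3 of its IDs were called higher at MR, beside 33.4% of all tested IDs (median 2.23 against -0.23 for all tested IDs). The summed level of the list was 1099 ± 289 FPKM at MR and 171 ± 166 FPKM at PV. Its most abundant ID, VIT_05s0136g00260, averaged 854 ± 251 FPKM at MR and 87.1 ± 87.8 FPKM at PV, and the next, VIT_14s0068g00920, averaged 204.5 FPKM at MR and 59.5 FPKM at PV. Between years at PV, all 3 were called lower in 2012 (median -1.39), beside 34% of all tested IDs. Between cultivars at PV all 3 were called higher in Sangiovese (median 0.77), beside 39.2% of all tested IDs. At MR 1 was higher and 1 lower, beside 46.7% and 25.7%. Of the 7 IDs listed for cinnamate 4-hydroxylase and 4-coumarate-CoA ligase, 1 was called higher and 4 lower at MR (median -0.85), beside 33.4% and 58.1% of all tested IDs, and 3 were higher and 1 lower in 2012 at PV, beside 25.1% and 34%. The 2 most abundant of these, VIT_06s0004g08150 and VIT_06s0061g00450, differed by 1.02 and -1.49 between MR and PV. The list of MYB regulators tied to stilbene synthases has 2 IDs. At MR 1 was called higher and 1 lower than at PV, beside 33.4% and 58.1% of all tested IDs. At PV both were called higher in 2012, beside 25.1%.

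**Figure D5:**
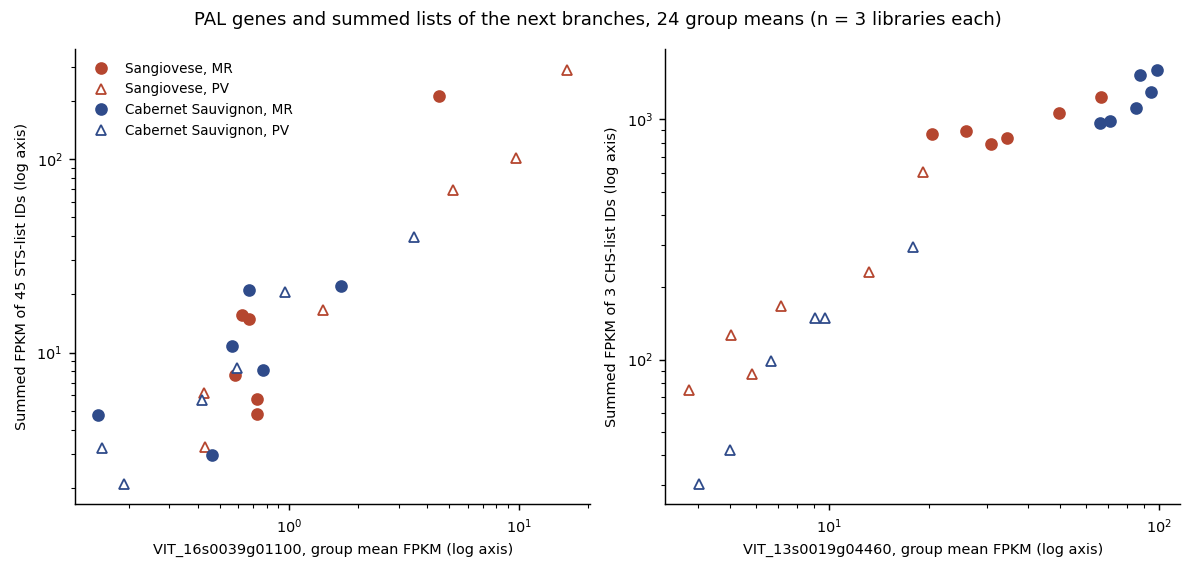
Group means in FPKM on log axes: g01100 against the summed stilbene synthase list, and the chromosome 13 copy against the summed chalcone synthase list, 24 groups each. In PV Sangiovese of Bolgheri 2012, g01100 averaged 16.2 FPKM and the stilbene synthase list summed to 289 FPKM.

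Summed stilbene synthase levels were highest in the groups where g01100 was high. The sum was 289 ± 145 FPKM in PV Sangiovese of Bolgheri 2012, 212 ± 90 FPKM in MR Sangiovese of Bolgheri 2012, 102 FPKM in PV Sangiovese of Riccione 2012, 69.0 FPKM in PV Sangiovese of Montalcino 2012 and 39.5 FPKM in PV Cabernet Sauvignon of Riccione 2012. In every other group it lay between 2.097 and 22 FPKM. Likeness was measured as the correlation of the 24 group means on the log2 scale, and described with no test. Among IDs that are not PAL members, the 2 most like g01100 were VIT_16s0039g01110 (r = 0.979) and VIT_10s0042g00850 (r = 0.968), the second being on the stilbene synthase list. Of the 50 IDs most like it, all with r of at least 0.852, 18 were on that list, which is 36% of the 50 and 48.6% of the 37 tested; the list makes up 0.181% of all tested IDs. The list's median r with g01100 was 0.84, against 0.0817 for all tested IDs. Only IDs with a group mean of at least 1 FPKM entered this measure. A low stilbene synthase ID that reached it only in groups where g01100 was high is thereby like g01100. The count and the median r may therefore be set in part by that minimum, and near-identical copies are not separate cases. The ID VIT_16s0039g01110 averaged 2.96 FPKM in PV Sangiovese of Bolgheri 2012 and 1.84 FPKM in PV Sangiovese of Riccione 2012; the numbers place it between g01100 and g01120, and shared reads with them cannot be told apart from a shared pattern.

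The 2 IDs most like the chromosome 13 copy were VIT_06s0061g00560 (r = 0.962) and VIT_15s0046g01920 (r = 0.956). Of the 50 most like it, all with r of at least 0.925, 1 was on the chalcone synthase list (VIT_05s0136g00260, r = 0.956) and 0 on the stilbene synthase list. The 3 chalcone synthase IDs had a median r of 0.9 with it, against -0.326 for all tested IDs. Among PAL members, the chromosome 6 copy had r = 0.872 and the chromosome 8 copy -0.462 with the chromosome 13 copy, while g01120 had r = 0.973 and the chromosome 13 copy -0.364 with g01100. Since stage held most of the variation of the chromosome 13 copy, its likeness to other IDs is in large measure a likeness in the difference between MR and PV.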

How the data were processed

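Per the submitters' processing notes, the tools were CASAVA 1.8.2, TopHat2 2.0.9 and Cufflinks 2.1.1; roles, options, build and annotation are not stated in these notes. The authors deposited FPKM per gene ID and library, whose sum ranged from 813505 to 1014766 per library. No sample was pooled or left out, and every column matched 1 sample title.

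The unit of analysis was log2(FPKM + 1), without any added scaling. Limma 3.58.1 (R 4.3.3; eBayes with trend) fitted a mean for each of 24 groups with 48 residual degrees of freedom, on IDs with a group mean of at least 1 FPKM, two-sided, and was tested on simulated data. Tables and figures were made in Python 3.11.15 with pandas 2.3.3. Relative depth came from fitting whole fragments to low values, 90.4% of which, below 3.5 fragments, lay within 0.1 of a whole number; those values had also served for the fit. Counts of reads were not recovered, so no count test was run.

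All 10 members are named; of other lists, at most the 2 most abundant IDs, and of likeness the 2 most alike. The members and lists were chosen with earlier results of these data known. A RefSeq table of 29591 genes held 0 of the 29971 IDs, so no coordinates or sequences are given. Alternatives were pseudocounts of 0.1 and 5, no filter, a filter at 5 FPKM, quantile normalization, median-of-ratios scaling, a minimum log2 difference of 1, leaving out Bolgheri 2012, group means as the unit, and leaving out each library.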

Additional observations from a re-analysis of the deposited data

Results flagged for a closer look

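The MR minus PV difference of 5 PAL IDs differed between Sangiovese and Cabernet Sauvignon by an interaction test in limma, by which 41.2% of all tested IDs were called higher and 25.3% lower. The interaction on the log2 scale was -1.22 for the chromosome 13 copy, -0.92 for VIT_16s0039g01100, -0.66 for the chromosome 6 copy, -0.63 for VIT_16s0039g01120 and 0.77 for the chromosome 8 copy. The value of VIT_16s0039g01120 carries no weight of its own, since this ID reached the minimum for testing only in Sangiovese groups of 2012.

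The Sangiovese minus Cabernet Sauvignon difference of 7 PAL IDs depended on the area and year, by an F-test over the 6 environments within a stage, which 68.1% of all tested IDs passed at PV and 67.2% at MR. At PV the F was 35.1 for VIT_16s0039g01120, 19 for VIT_16s0039g01100, 14 for VIT_16s0039g01170, 7.97 for the chromosome 6 copy, 7.29 for the chromosome 13 copy and 3.61 for the chromosome 8 copy. At MR it was 37.8 for VIT_16s0039g01360, 23.4 for VIT_16s0039g01170, 9.68 for the chromosome 8 copy, 8.95 for VIT_16s0039g01100, 7.01 for VIT_16s0039g01120 and 5.46 for the chromosome 13 copy. The values of VIT_16s0039g01170 and VIT_16s0039g01360 carry no weight of their own, since both IDs reached the minimum for testing only in Sangiovese of Bolgheri 2012, the groups that also raise this F. Likewise, VIT_16s0039g01120 reached it only in Sangiovese groups of 2012.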

How the results depend on the processing

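Counts below are of PAL IDs called. Shares of all tested IDs were computed only for the main fit and for group means as the unit. The other counts have no background beside them. Requiring a log2 difference of at least 1 left 1 lower by stage (from 3), 0 lower by stage in Sangiovese, 0 higher and 1 lower for cultivar by stage, 1 higher by cultivar at PV and 0 at MR, 2 higher and 1 lower by year at PV, and 0 higher and 0 lower by year at MR. A pseudocount of 5 gave 2 higher for cultivar by stage and 1 lower by year at MR. With no filter, 4 were higher by stage in Cabernet Sauvignon and 5 differed by area at MR, and VIT_16s0039g01280 and g01300 raised the counts higher by cultivar to 7 at PV and 6 at MR and by year to 6 at each stage. At a minimum of 5 FPKM, where fewer IDs were tested, 3 were higher by cultivar at PV, 2 by year at PV, 2 by year at MR, and 1 differed by area at MR. Median-of-ratios scaling gave 2 higher for cultivar by stage. Quantile normalization gave 2 higher for cultivar by stage and 5 higher by stage in Cabernet Sauvignon; it turned VIT_16s0039g01170 to 0.16 by stage and 0.12 by stage in Sangiovese, and VIT_16s0039g01100 to 0.30 by stage in Cabernet Sauvignon. Without Bolgheri 2012, where VIT_16s0039g01170 and g01360 were no longer tested, 0 were higher for cultivar by stage, 2 higher and 1 lower by cultivar at PV, 1 higher by cultivar at MR, 2 higher by year at PV, 1 higher by year at MR, and 3 (PV) and 1 (MR) had a cultivar-by-environment interaction; the cultivar difference became -0.25 for the chromosome 13 copy at PV and -0.033 for VIT_16s0039g01100 at MR. With group means as the unit and 14 residual degrees of freedom, 0 were higher and 1 lower for cultivar by stage. Of all tested IDs, 24.1% were called there in either direction, as are the shares that follow. By cultivar, 2 were higher at PV and 0 at MR, beside 40.5% and 39.7%. By year, 2 were higher and 1 lower at PV, and 0 and 0 at MR, beside 14.7% and 0.509%. By area, 0 differed at PV and 0 at MR, beside 0.0147% and 0.00489%. In the 72 fits without 1 library each, the count higher for cultivar by stage was 1 to 2, at 2 in 4 of them; VIT_16s0039g01170 lost its call by cultivar at PV in 54, VIT_16s0039g01360 its call by year at PV in 22, and VIT_16s0039g01100 its call by cultivar at MR in 1. Except where a value itself names the reason, the cause was not tested. No paired analysis was possible because replicate numbers were given in accession order and pair no samples. Depth limits the cluster members g01240, g01280 and g01300, which were at or near 0 in most libraries.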
